A study of Mus musculus with 2 samples.

Results

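The cells described here were 66 progenitors that carried transcripts of Ptprc, which encodes the pan-leukocyte surface protein CD45, and of Myb, a transcription factor of hematopoietic stem and progenitor cells. They were taken from 2139 single cells of mouse embryos at embryonic day 10.0 and were chosen by their own UMI counts (a UMI, or unique molecular identifier, marks 1 captured transcript). A cell was selected when it held at least 1 Ptprc UMI and at least 2 Myb UMIs, when the Fc receptor gene Fcgr3 was below 50 CPM (the UMIs of a gene per 1000000 UMIs of that cell), when the complement genes C1qa, C1qb and C1qc of macrophages summed to less than 500 CPM, when the platelet genes Gp9, Gp1bb, Ppbp and Treml1 summed to less than 500 CPM, and when Gfi1 or Neurl3, or both, had no UMI. Gfi1 and Neurl3 mark hemogenic endothelium and the endothelial-to-hematopoietic transition (EHT), and the 251 cells with UMIs of both, called Gfi1+Neurl3+ cells below, were the first population for comparison. The other 2 were the 102 Fcgr3-high neighbours, which met every condition except that Fcgr3 was at 50 CPM or more, and the 2073 cells outside the progenitors, which include the other groups.

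The study asked how loss of the stress-response gene Nupr1 affects the formation of blood stem and progenitor cells. Cells from the caudal part of each embryo were labelled by genotype with hashtag oligonucleotides carried on streptavidin. Those positive for CD31 and CD44 were then sorted, mixed and run as 2 droplet libraries, one for each replicate. Conditional knockout embryos (cKO) were VEC-Cre;Nupr1 fl/fl, and the controls were their littermates, carried under the WT hashtag and described in the study as Nupr1 fl/fl or Nupr1 fl/+, with all embryos on a C57BL/6 background. The Cre transgene is driven by the VE-cadherin promoter, so that recombination occurs in endothelial cells and is inherited by their descendants. Each hashtag marked 1 genotype, and how many embryos carried each was not given in the sources used here. The 4 genotype by replicate sums of UMIs served as the samples, so that p-values measure the spread between these sums. The libraries shared 0 cell barcodes.

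In the mouse embryo, definitive blood stem cells arise from endothelium that lines the dorsal aorta: endothelial cells lose junction and arterial genes, bud into clusters and switch on hematopoietic regulators and then CD45. Earlier blood waves from the yolk sac supply erythroid, megakaryocytic and myeloid cells, including macrophages, that circulate at the same stage. Hlf and the posterior Hoxa genes are widely used as marks of stem cell identity in the embryo, Flt3 and Il7r of lymphoid-primed progenitors, Mpo and Irf8 of myeloid ones, and Gata1 and Klf1 of erythroid ones.

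Promoters of 5 genes are shown because the genes behind them carry the contrasts that follow: Hoxa9 and Hlf split the progenitors into groups, Flt3 and Il7r summed higher in them than in Gfi1+Neurl3+ cells, and Mpo runs through nearly all of them. Each window runs from 250 bases before to 50 bases after the annotated start, 5′ to 3′ on the gene's strand, in RefSeq sequence of build GRCm38.p6. Capitals mark matches, on either strand, to the motifs of 4 blood regulator families. The RUNX motif was searched as TGTGGT. For the erythroid and stem cell factors of the GATA family the letters were AGATAA. The myeloid factor PU.1 was represented by GAGGAA, and the product of Myb by the short motif AACTG.
Hoxa9, chr6:52227321-52227620, minus strand: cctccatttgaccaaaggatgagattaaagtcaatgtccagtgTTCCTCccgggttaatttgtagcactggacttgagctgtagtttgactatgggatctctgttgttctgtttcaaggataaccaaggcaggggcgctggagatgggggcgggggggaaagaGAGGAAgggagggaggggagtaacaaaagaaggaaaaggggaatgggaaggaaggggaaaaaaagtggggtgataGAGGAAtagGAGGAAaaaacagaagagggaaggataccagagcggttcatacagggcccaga
Hlf, chr11:90390868-90391167, minus strand: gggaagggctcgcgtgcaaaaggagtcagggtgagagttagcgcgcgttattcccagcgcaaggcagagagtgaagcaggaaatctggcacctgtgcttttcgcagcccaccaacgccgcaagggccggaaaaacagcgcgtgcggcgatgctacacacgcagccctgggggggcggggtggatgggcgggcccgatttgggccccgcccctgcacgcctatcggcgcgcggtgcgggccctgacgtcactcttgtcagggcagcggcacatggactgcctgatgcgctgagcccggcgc
Flt3, chr5:147400440-147400739, minus strand: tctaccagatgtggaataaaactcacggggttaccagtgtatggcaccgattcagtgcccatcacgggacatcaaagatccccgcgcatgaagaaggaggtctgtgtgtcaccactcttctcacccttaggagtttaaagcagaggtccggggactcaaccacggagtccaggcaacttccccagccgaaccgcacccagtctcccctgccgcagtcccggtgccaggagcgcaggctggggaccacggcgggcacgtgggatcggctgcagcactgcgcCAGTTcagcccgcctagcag
Il7r, chr15:9529827-9530126, minus strand: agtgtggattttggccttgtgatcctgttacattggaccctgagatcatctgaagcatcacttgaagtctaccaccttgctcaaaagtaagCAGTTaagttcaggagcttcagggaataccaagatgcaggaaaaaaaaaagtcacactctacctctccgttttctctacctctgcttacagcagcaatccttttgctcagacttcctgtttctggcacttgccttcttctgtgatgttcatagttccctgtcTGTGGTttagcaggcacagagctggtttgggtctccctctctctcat
Mpo, chr11:87793534-87793833, plus strand: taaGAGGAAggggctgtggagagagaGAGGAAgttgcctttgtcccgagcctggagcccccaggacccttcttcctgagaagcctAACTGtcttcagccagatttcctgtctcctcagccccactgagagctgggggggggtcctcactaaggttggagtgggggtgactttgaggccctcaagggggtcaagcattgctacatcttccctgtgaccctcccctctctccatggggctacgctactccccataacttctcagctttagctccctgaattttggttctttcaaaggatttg
The Hoxa9 window held 4 PU.1 matches, the Mpo window 2 PU.1 matches and 1 MYB match, the Il7r window 1 RUNX and 1 MYB match, and the Flt3 window 1 MYB match, while the Hlf window held 0 matches. Among the windows of 32851 promoters, 16.8% held the RUNX letters, 11.2% the GATA letters, 28.3% the PU.1 letters and 44.8% the MYB letters, and no 2 of these motifs overlapped in the windows shown. These matches describe letters and not bound sites.

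The progenitors were deeply sequenced. Their median was 78289 UMIs and 6738 genes per cell, against medians of 55502 UMIs in Gfi1+Neurl3+ cells, 84117 UMIs in the Fcgr3-high neighbours and 54066 UMIs in all other cells, and the 4 sums held 781404 to 1925904 UMIs. Doublets were removed before deposit only as far as hashtag calls show them, no caller was run here, and 12 progenitors had over 2 times the median UMIs of their source. The genotype and replicate groups also differed in makeup around the progenitors, since the macrophage gate (500 CPM or more of the complement genes) held 53 of 344 cKO and 35 of 334 control cells in replicate 1 but 276 of 713 and 302 of 748 in replicate 2.

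The limits of the rule passed through a continuous range. Of the members, 29 had a single Ptprc UMI and 7 had only 2 Myb UMIs, with 1 cell at both limits. The median member had 2 Ptprc and 7 Myb UMIs, and the highest 21 and 36. Just outside stood 21 cells that failed only by having 1 Myb UMI and 69 that failed only by having no Ptprc. Fcgr3 was at 0 in 26 members and reached 47.4 CPM in the highest, whereas the lowest neighbour had 55.2 CPM and 23 of the 102 neighbours lay between 50 and 100 CPM. The complement and platelet conditions removed 0 cells once the others were met, and the condition on Gfi1 and Neurl3 removed 84 of 150. Neurl3 alone was present in 41 members, Gfi1 alone in 5 and neither in 20.

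The first comparison was how many progenitors each genotype held. They were 14 of 344 cKO cells in replicate 1, which is 4.07% (exact 95% binomial interval 2.24 to 6.73), and 22 of 713 in replicate 2, which is 3.09% (1.94 to 4.63). Control cells gave 16 of 334, or 4.79% (2.76 to 7.66), and 14 of 748, or 1.87% (1.03 to 3.12); these intervals cover counting error only. The cKO mean of 3.58% ± 0.696 (SD, n = 2) lay 0.247 percentage points above the control mean of 3.33% ± 2.06, which is less than the spread between the replicates (p = 1, two-sided exact permutation test, where 2 against 2 cannot go below 0.33).

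The direction differed between the replicates. The cKO share was lower by 0.721 points in replicate 1 (a difference of -0.721) and higher by 1.21 points in replicate 2, and without control replicate 2 the difference turned to -1.21, without cKO replicate 1 to -0.245. Counted among cells outside the macrophage and megakaryocyte gates, progenitors made up 4.81% and 6.27% of cKO and 5.44% and 4.24% of control cells, a difference of 0.697 points (p = 0.667, exact permutation test). Gfi1+Neurl3+ cells were 20.9% and 8.84% of cKO and 19.2% and 6.95% of control cells, with a difference of 1.77 points in replicate 1 and 1.88 points in replicate 2. The unpaired test of their mean difference of 1.83 points gave p = 0.667 (exact permutation test), and it does not use the pairing of the genotypes within a library.

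**Figure D1:**
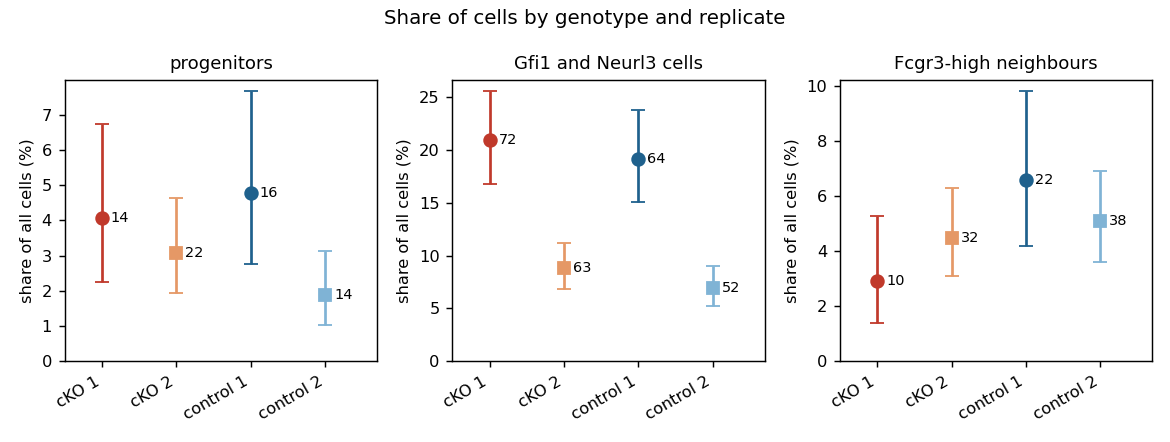
Share of all cells in percent (vertical axis) taken by the progenitors, the Gfi1+Neurl3+ cells and the Fcgr3-high neighbours in each genotype and replicate, with exact 95% binomial intervals and the cell count beside each point. Progenitor shares run from 1.87% to 4.79% with overlapping genotypes, while the shares of Gfi1+Neurl3+ cells are set apart by replicate.

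The progenitors carried the markers of leukocytes that the rule had not used. These markers were chosen with earlier results of these data known, so their detection describes the cells and is no independent check. Rac2, a GTPase of blood cells, was detected in 66 of 66, Fcer1g, an Fc receptor adaptor, in 64, Bin2, a membrane-shaping protein of leukocytes, in 49 and Serpinb1a, a protease inhibitor of myeloid cells, in 46. A reference of 397 arterial cells that should lack them had at least 2 Gja5 UMIs and none of the blood regulator Runx1 (median 23755 UMIs). The Runx1 condition leaves out arterial cells with that RNA, so blood gene detection in the reference is not independent of it. In these arterial cells the same genes were detected in 6.05%, 10.1%, 4.53% and 4.28%. After each cell was thinned to 6000 UMIs, the shares were 84.6%, 70.8%, 36.9% and 33.8% of 65 progenitors, against 2.35%, 2.87%, 1.31% and 2.09% of 383 arterial cells. Kit, the receptor of stem cell factor, was found in 60 members and Cd34, a sialomucin of stem cells and endothelium, in 58. Of the genes behind the sort, Pecam1 (CD31) was at 43.5, 23.9, 42.1 and 18.8 CPM and Cd44 at 110.1, 60.2, 69.2 and 43.4 CPM in the 4 sums. Macrophages carried the first 3 leukocyte markers as widely (99.4%, 99.8% and 95.6% for Rac2, Fcer1g and Bin2), so these do not set progenitors apart from macrophages. Cd34 was found in 46.1% of macrophages and 99% of arterial cells, and Kit in 1.5% of macrophages and 24.7% of arterial cells, and after thinning in 49.2% of progenitors against 0.152% and 7.57%. Kit was also found in 89.2% of Gfi1+Neurl3+ cells and 76.5% of the Fcgr3-high neighbours (39.4% and 13.7% after thinning). Cd34 was found in 99.6% and 95.1% of them (88.8% and 57.8% after thinning, against 80% of progenitors). The neighbours carried Rac2, Fcer1g, Bin2 and Serpinb1a in 100%, 100%, 95.1% and 81.4%. Without thinning, none of these genes sets the progenitors apart from the neighbours. The label of stem and progenitor cells rests on Kit, Cd34 and the genes described next, and Hoxa9 and Hlf were both at 0 in 20 of the 66.

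Stem cell and lineage genes divided the 66 cells. Hoxa9 was detected in 45 and Hlf in 40, and 39 carried both, so that only 1 cell had Hlf without Hoxa9. Hoxa9 was also found in 49.9% of arterial cells, and after thinning in 25.6% of them against 27.7% of progenitors. At equal depth its detection therefore does not set progenitors apart from arterial cells. Hlf was found in 5.04% of arterial cells, and after thinning in 1.83% against 23.1% of progenitors. All 45 cells with Hoxa9 also had Cd34. Mpo, the granule enzyme of myeloid cells, was found in 62 (93.9%, or 50.8% after thinning), against 21.6% of macrophages and 5.54% of arterial cells (3.64% and 1.83% after thinning), and in 38 of the 40 with Hlf, while the granule protease gene Elane was found in 5. Flt3 was detected in 32 cells, Il7r in 20, and both in 17, and 31 of the 32 with Flt3 also had Mpo. The rearrangement and lymphoid enzyme genes Rag1 and Dntt were found in 1 and 0 of the 66.

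Grouping by these counts, with limits chosen after the values were seen, gave 43 cells with at least 2 UMIs of Hoxa9 and Hlf together and fewer than 2 of Gata1 and Klf1, 8 with at least 2 of Gata1 and Klf1, and 15 with neither. The groups are ranges of counts and no types: 3 members had exactly 1 UMI of Hoxa9 and Hlf and 2 had exactly 1 UMI of Gata1 and Klf1. The Hoxa9 or Hlf cells numbered 11 and 11 in cKO and 12 and 9 in control. The cells with neither were 3 and 8 in cKO and 4 and 0 in control, and the Gata1 or Klf1 cells were 0 and 3 in cKO and 0 and 5 in control, so that all 8 came from replicate 2.

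The Hoxa9 or Hlf cells kept the most endothelial RNA. Their summed Cdh5, the adhesion gene VE-cadherin, stood at 46.3 CPM, against 2.7 CPM in the Gata1 or Klf1 cells and 2.4 CPM in the cells with neither. Emcn, a sialomucin of endothelium and early stem cells, followed the same order at 39.6, 0 and 0.8 CPM. Flt3 was at 20.6 CPM in them against 0 and 6.4 CPM, and Il7r at 26.3 CPM against 0 and 3.2 CPM, so both lymphoid receptors lay mainly with Hoxa9 and Hlf. Control replicate 2 held 45 of the Il7r UMIs of these cells, 28 of them in 1 cell, and without that source Il7r was at 15.2 CPM.

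As a sum, the 15 cells with neither gene pair held more myeloid RNA, though single cells ranged widely. Mpo summed to 641 CPM in them, against 169 CPM in Hoxa9 or Hlf cells, but ran from 0 to 1572 CPM by cell with a median of 689 CPM, and the sum was 295 CPM without cKO replicate 2. The protease gene Prtn3 summed to 1152 CPM against 212, and to 546 CPM without cKO replicate 2. Irf8, a transcription factor of monocytes and dendritic cells, was at 125 CPM against 15, and the median cell had 49.7 CPM. Csf1r, the receptor of macrophage colony-stimulating factor, was at 59.6 CPM against 10, but 42 of its 75 UMIs were in 1 cell, without which it was at 29.2 CPM, and without control replicate 1 it was at 27.8 CPM. Their 5 median Ptprc UMIs exceeded the 2 of the Hoxa9 or Hlf cells, with median depths of 90507 and 64038 UMIs.

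High Irf8 and high Mpo marked overlapping members. At least 10 Irf8 UMIs were found in 6 cells, all among the 15, of which 5 had Csf1r and 4 had Kit, and which came as 4 from cKO replicate 2 and 2 from control replicate 1. Mpo reached 500 CPM in 11 of the 66 cells, 9 of them among the 15 and 2 among the Hoxa9 or Hlf cells, with 2 and 8 in cKO and 1 and 0 in control. Both limits, chosen after the values were seen, were met by 4 cells, all from cKO replicate 2.

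The 8 Gata1 or Klf1 cells went against the label in part. Gata1, the master regulator of erythroid and megakaryocytic genes, summed to 119 CPM in them and Klf1 to 186 CPM, and Smim1, which encodes the Vel blood group protein, to 180 CPM, against 3 CPM in Hoxa9 or Hlf cells. Cd34 had no UMI in 7 of the 8 and stood at 12.2 CPM over the group, and 7 of the 8 had entered the gate with a single Ptprc UMI. Results that moved when these cells were left out are given with both values.

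**Figure D2:**
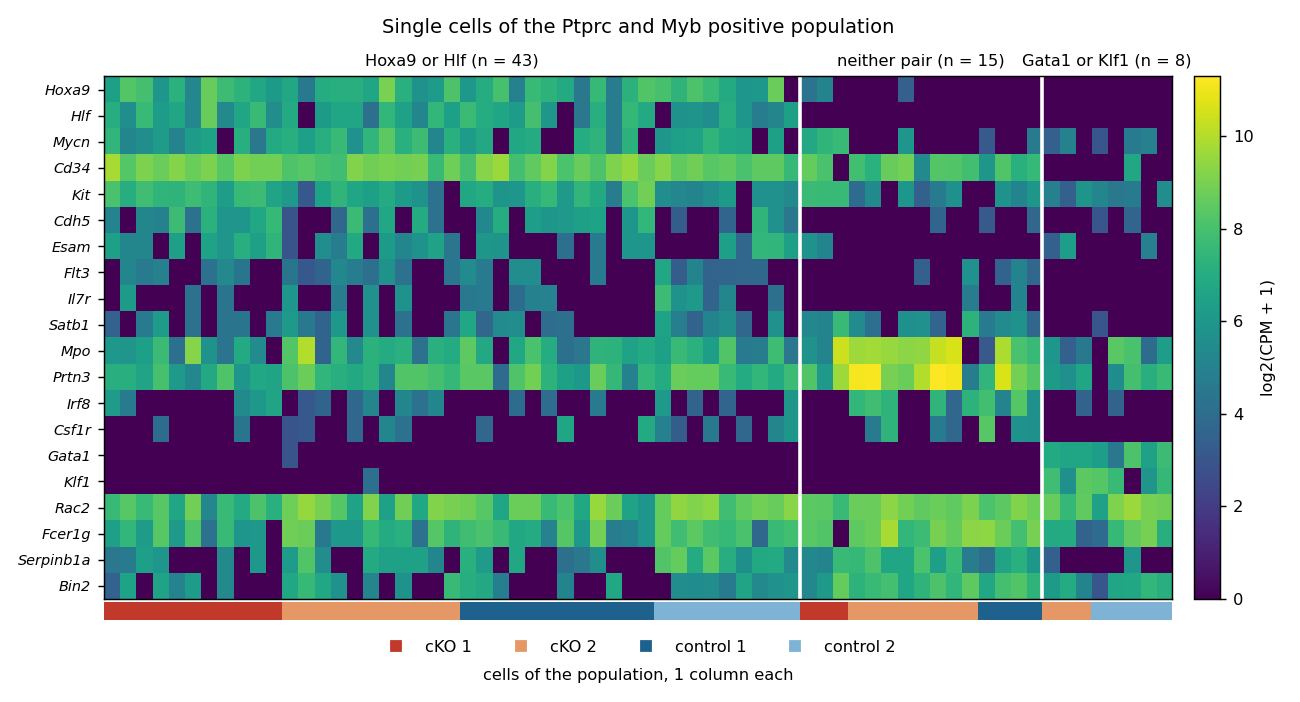
The 66 progenitors as columns and 20 genes as rows, coloured by log2(CPM + 1), with the cells ordered into 43 with Hoxa9 or Hlf, 15 with neither and 8 with Gata1 or Klf1 and a strip giving genotype and replicate. Cdh5, Flt3 and Il7r fall mainly in the first block, the highest Mpo and Irf8 cells in the second, and Gata1 and Klf1 in the last.

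Compared with Gfi1+Neurl3+ cells, the progenitors carried less endothelial and arterial RNA, while the calls among stem cell regulators depended on the fit. edgeR's quasi-likelihood test with Benjamini-Hochberg adjustment, used for every call below at an adjusted p of 0.05, called 834 of 9539 genes, 215 higher (2.25% of those tested) and 619 lower (6.49%) in the progenitors. With a block for each genotype by replicate source, called the replicate block in the population comparisons, the counts were 1025 higher (10.7%) and 1142 lower (12%). Deviations of progenitors and Gfi1+Neurl3+ cells of the same source correlated at r = 0.266 to 0.521. The fit without the block leaves this pairing out. Genes that vary with the gate genes are not independent of the selection, and in a sum fewer cells with a gene and less RNA per cell cannot be told apart.

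Among 16 endothelial genes, 14 fell and 0 rose, with a median log2 fold change of -2.12 where the median over all genes was 0.01. Cdh5 stood at 62.7 and 17.7 CPM in the cKO progenitors and 37.4 and 17.2 CPM in the control progenitors, against 348, 172, 268 and 301 CPM in Gfi1+Neurl3+ cells in the same order. No progenitor sum reached the lowest Gfi1+Neurl3+ sum, and the gene was 8.15-fold lower (log2 -3.03 ± 0.35 SE, adjusted p = 0.00035). Cdh5 was still detected in 36 of 66 progenitors (54.5%, or 21.5% after thinning) and in 12.2% of 666 macrophages of median 58047 UMIs (1.82% after thinning).

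Arterial genes lay further apart. Of 12 tested, 11 fell, with a median of -3.81 on the log2 scale. Gja5, the gap junction gene connexin 40 of arteries, was at 6.4 and 0 CPM in cKO and 1.87 and 4.1 CPM in control progenitors, and at 142, 53.1, 96.7 and 135 CPM in Gfi1+Neurl3+ cells. The sums did not overlap and the difference was 39.5-fold (log2 -5.30, adjusted p = 0.00023). Hey1, a Notch target of arterial cells, was 13.4-fold lower (log2 -3.74, adjusted p = 0.001) and Cldn5, a tight junction gene, 24.1-fold lower (log2 -4.59, adjusted p = 6.1e-05).

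The stem cell list moved unevenly. Of 19 genes tested, 0 rose and 4 fell, with a median of -0.31, and under the replicate block 3 rose and 8 fell. Procr, the protein C receptor used to isolate embryonic stem cell precursors, was at 25.6 and 8.83 CPM in cKO and 4.68 and 5.73 CPM in control progenitors, against 125, 116, 159 and 169 CPM. It was lower in each of the 4 sums, 13.2-fold in the fit (log2 -3.72, adjusted p = 0.00013). Mecom, a zinc finger regulator of stem cells and arterial endothelium, was 6.52-fold lower (log2 -2.70, adjusted p = 0.00059), and Esam, an endothelial and stem cell adhesion molecule, 5.34-fold lower (log2 -2.42, adjusted p = 0.0014). The fourth gene was Hoxa10, at 8.96, 3.12, 3.74 and 2.46 CPM against 9.04, 10.9, 12.5 and 11.3 CPM, and its call (log2 -1.32) was lost without cKO replicate 2 (-1.14), control replicate 1 (-1.20), control replicate 2 (-1.12) or the Gata1 or Klf1 cells (-1.11).

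Other regulators of the same list overlapped between the populations. Hoxa9 measured 155, 60.8, 80.4 and 115 CPM in progenitors and 145, 136, 146 and 136 CPM in Gfi1+Neurl3+ cells, overlapping ranges (log2 -0.41 ± 0.23, adjusted p = 0.30). Hlf measured 110.1, 37.4, 72 and 31.9 CPM against 143, 87, 115 and 75.8 CPM. Its ranges overlapped too, and the difference of -0.73 was not called (adjusted p = 0.19) but was called under the replicate block (log2 -0.78, adjusted p = 0.0026). Of the 7 heptad factors, the transcription factors that act together on stem cell enhancers, 0 were called (1 higher and 2 lower under the block), with Runx1 at -0.02 and Tal1 at -0.49.

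Lymphoid genes leaned the other way. Of 8 tested, 3 rose and 0 fell, with a median of 0.36, and 1 also fell under the block. Flt3, a growth factor receptor of multipotent and lymphoid-primed progenitors, was at 14.1 and 9.87 CPM in cKO and 16.8 and 18 CPM in control progenitors, against 4.4, 9.45, 5.62 and 5.33 CPM. The progenitor sums all lay above the others, though cKO replicate 2 by a small step (2.43-fold, log2 1.28 ± 0.33, adjusted p = 0.031). Without cKO replicate 1, control replicate 1 or control replicate 2 it was no longer called, at 1.16, 1.16 and 1.08.

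Il7r, the receptor of interleukin 7, was at 10.2, 9.35, 11.2 and 36.9 CPM in progenitors and 1.71, 5.09, 1.53 and 3.26 CPM in Gfi1+Neurl3+ cells. The ranges did not overlap and the highest sum was control replicate 2 (6.11-fold, log2 2.61, adjusted p = 0.011). Satb1, a chromatin organiser of lymphoid cells, was 2.73-fold higher (log2 1.45, adjusted p = 0.0087). Both calls were lost without control replicate 1 (2.55 for Il7r and 1.46 for Satb1) and without control replicate 2 (1.91 and 1.38).

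The lymphoid receptors were sparse in single cells. Flt3 was found in 48.5% of progenitors and 20.3% of Gfi1+Neurl3+ cells, against 0.504% of arterial cells and 2.1% of macrophages. After thinning the shares were 10.8% and 3.59%, with 0% of arterial cells and 0.455% of macrophages. Il7r was found in 30.3% and 6.77%, against 0 of 397 arterial cells (exact upper limit 0.925%) and 7.66% of macrophages, and thinning left 3 progenitors (4.62%) and 1 Gfi1+Neurl3+ cell (0.398%), a level near 1 UMI from which no order is read.

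Granulocyte-monocyte genes were higher in part. Of 13 tested, 3 rose and 0 fell, with a median of 0.06, and 4 rose and 1 fell under the block, where 2.25% and 10.7% of all genes were called higher without and with the block. Spi1, which encodes the myeloid factor PU.1, was at 261, 329, 238 and 170 CPM against 208, 330, 241 and 239 CPM and was not called (log2 0.04, adjusted p = 0.93). Irf8 was at 23, 53, 64.5 and 12.3 CPM in progenitors and at 4.89, 8.48, 8.93 and 7.11 CPM in Gfi1+Neurl3+ cells, with no overlap (5.52-fold, log2 2.47, adjusted p = 0.0041). Its UMIs lay in few cells: the 15 with neither gene pair held 157, against 45 in the 43 Hoxa9 or Hlf cells. The 6 cells with at least 10 Irf8 UMIs came from the highest sums, 4 in cKO replicate 2 and 2 in control replicate 1. By detection Irf8 was in 47% of progenitors and 25.5% of Gfi1+Neurl3+ cells (15.4% and 4.38% after thinning). Csf3r, the receptor of granulocyte colony-stimulating factor, rose by 1.16 on the log2 scale (adjusted p = 0.039), and Csf1r by 2.63 (adjusted p = 0.047) with overlapping sums of 2.56, 15.6, 56.1 and 10.6 CPM against 1.47, 5.33, 5.62 and 1.78 CPM. The Csf3r call was lost without any 1 of the 4 sources (1.01 to 1.30), and the Csf1r call without cKO replicate 2 (3.06), control replicate 1 (1.92) or control replicate 2 (2.64).

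Granule genes were not called. Mpo was at 114, 474, 210.4 and 127 CPM in progenitors and 28.8, 473, 195 and 137 CPM in Gfi1+Neurl3+ cells, ranges that lie over each other, and cKO replicate 2 was high in both (log2 0.22 ± 0.80, adjusted p = 0.90). Prtn3 gave 0.06 (adjusted p = 0.97). By detection Mpo differed, at 93.9% of progenitors and 52.6% of Gfi1+Neurl3+ cells (50.8% and 21.1% after thinning). The Gfi1+Neurl3+ cells had no limit on Fcgr3, complement or platelet genes. In cKO replicate 2 their sum held 662 Fcgr3 UMIs, against 34 in the progenitors. The part of such cells in the Mpo sums was not tested.

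Leukocyte surface and signalling genes were mostly higher, but few passed the test. Of 20, 2 rose and 0 fell, 19 had a positive fold change and the median was 0.80, while under the replicate block 16 rose. Lcp1, an actin-bundling protein of leukocytes, was at 145, 119.9, 159 and 102 CPM in progenitors against 65, 83.8, 90.4 and 56.3 CPM (log2 0.89, adjusted p = 0.012; 0.90 and no longer called without control replicate 1). Cytip, which binds a regulator of leukocyte adhesion, was the other, and lost its call without cKO replicate 1 (1.05), control replicate 1 (1.28) or control replicate 2 (1.31). The markers Rac2 and Bin2 were at log2 1.57 (adjusted p = 0.10) and 2.21 (adjusted p = 0.056), and under the block at 1.77 (adjusted p = 0.036) and 2.27 (adjusted p = 0.00022).

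Outside these lists, Ncf1, Pkib and Pou2f2 were among the genes called higher under every alternative that tested them. Ncf1, an NADPH oxidase subunit of phagocytes, measured 24.3, 58.2, 64.5 and 33.6 CPM against 7.58, 16.5, 12.8 and 6.22 CPM. It did not overlap (4.45-fold, log2 2.15, adjusted p = 0.0036). Pkib, an inhibitor of protein kinase A, rose 5.58-fold (log2 2.48, adjusted p = 0.0037) at an even 17.9 to 22.9 CPM, and Pou2f2, the lymphoid transcription factor Oct-2, rose 4.18-fold (log2 2.06, adjusted p = 0.009).

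Erythroid genes gave 1 call in each direction among 7 tested. Gfi1b, a repressor of erythroid and megakaryocytic cells, was at 33.3, 55, 36.5 and 45 CPM against 13.4, 24.2, 9.44 and 15.1 CPM, without overlap (2.91-fold, log2 1.54, adjusted p = 0.0082), and lost its call without the 8 Gata1 or Klf1 cells (0.97) or without control replicate 2 (1.50). Hbb-y, an embryonic globin gene, was at 2.56 to 4.1 CPM against 16.6 to 65.9 CPM (log2 -3.40, adjusted p = 0.0018). The red cell gene Smim1 was called higher (log2 2.64, adjusted p = 0.029), but not under the block (2.36, adjusted p = 0.095) or, at 0.03, without the 8 Gata1 or Klf1 cells. It was also not called under the block (2.36) or without cKO replicate 2 (2.89), control replicate 1 (2.95) or control replicate 2 (1.58).

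Immediate-early genes, induced within minutes by growth signals and by tissue handling, were lower. Of 14 tested, 5 fell and 0 rose, with a median of -0.82, and 8 fell under the block. Btg2, an antiproliferative member, was at 99.8, 71.7, 61.7 and 38.5 CPM against 213, 151, 173 and 149.6 CPM, without overlap (2.43-fold lower, log2 -1.28, adjusted p = 0.0042). Junb lost its call without control replicate 2 (-0.85), Ier3 without control replicate 1 (-1.50) or 2 (-1.37), Nr4a1 without cKO replicate 1 (-1.96), control replicate 2 (-1.89) or the Gata1 or Klf1 cells (-1.66), and Fos under the block (-1.30), without cKO replicate 1 (-1.22), cKO replicate 2 (-1.27) or control replicate 2 (-0.97), and without the Gata1 or Klf1 cells (-1.17).

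Among cell cycle genes, the calls of the main fit lay in the G2 and M phase list. Of 25 S phase genes 0 were called (median 0.08, and 1 higher under the block), and of 25 G2 and M phase genes 3 rose and 0 fell, with a median of 0.45 and 15 higher under the block. A positive fold change was found in 24 of these 25. Over all genes tested, 2.25% were called higher, and 10.7% under the block. Bub1b, a spindle checkpoint kinase, was at 66.5, 48.3, 71.1 and 50.8 CPM against 34.2, 28.8, 36.8 and 35.2 CPM (log2 0.87, adjusted p = 0.0075), and without control replicate 1 it was not called (0.81). Bub1 and Hmmr, the others called, lost their calls without control replicate 1 at 0.67 and 0.75 and without cKO replicate 2 at 0.74 and 0.75. Without cKO replicate 1 (0.59) or control replicate 2 (0.69) Bub1 was not called either.

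Markers of other cells moved in this contrast as well. The summed level of 10 mesenchymal and muscle genes was 3.28 to 57.6 CPM in progenitors and 150 to 746 CPM in Gfi1+Neurl3+ cells, with 2 of the 10 at 0 in all progenitors. Macrophage genes summed to 355 to 546 CPM against 809 to 909 CPM, and 4 of those 16 were at 0 in the progenitors. Most of that sum was Apoe, a lipid carrier gene, at 529.8, 265, 252 and 378 CPM against 814, 759, 782 and 848 CPM (log2 -1.11, adjusted p = 0.0054). Of the 6 macrophage genes tested 1 rose and 2 fell. The higher one was Cx3cr1, the fractalkine receptor, with overlapping sums of 3.84, 23.4, 93.5 and 6.55 CPM against 0.978, 5.09, 1.53 and 3.26 CPM (log2 3.59, adjusted p = 0.048), and it was not called under the block (3.23, adjusted p = 0.053), with no low-count filter (3.56), with control sums only (4.42) or without cKO replicate 1 (3.62), control replicate 1 (2.06) or control replicate 2 (4.02). The megakaryocyte list had 3 of 9 genes lower. The part of these genes in the contrast was not tested.

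**Figure D3:**
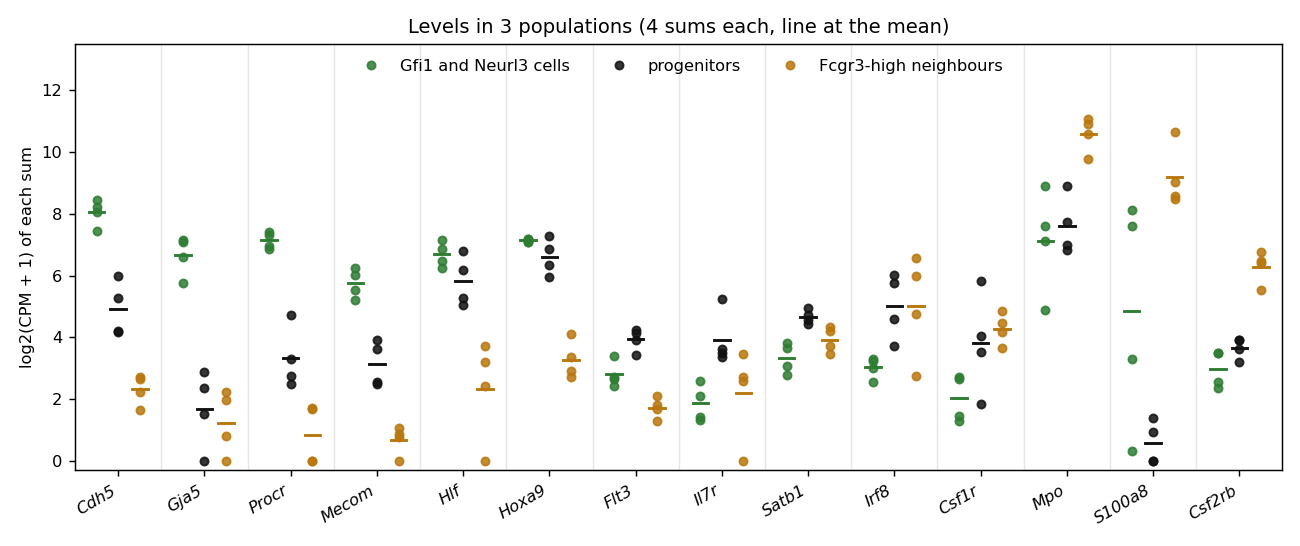
Level in log2(CPM + 1) (vertical axis) of 14 genes in the 4 genotype by replicate sums of progenitors, Gfi1+Neurl3+ cells and Fcgr3-high neighbours, with a line at the mean. Cdh5, Gja5, Procr and Mecom are highest in Gfi1+Neurl3+ cells, Flt3 and Il7r in progenitors, and Mpo and Csf2rb in the neighbours.

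The nearest cells by the rule, the Fcgr3-high neighbours, carried less stem cell RNA than the progenitors and more RNA of granule genes. Their makeup also differed. By the limits given above, 42 of the 102 neighbours were Gata1 or Klf1 cells, 49 had neither and 11 were Hoxa9 or Hlf cells. Among the progenitors these classes held 8, 15 and 43 cells. The part of this makeup in the contrast was not tested. Of 7480 genes tested, 176 were higher (2.35%) and 287 lower (3.84%) in progenitors, and 344 (4.60%) and 574 (7.67%) under the block. Fcgr3 itself chose the groups and is not a result. Genes that vary with Fcgr3 are not independent of that choice either, which may include the granule, receptor and leukocyte genes below.

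Stem cell genes were higher in progenitors. Of 16 tested, 7 rose and 0 fell, with a median of 1.01. Hoxa9 was at 5.6, 16.2, 6.52 and 9.3 CPM in the neighbours, so that all the progenitor sums, from 60.8 to 155 CPM, lay above them (9.3-fold, log2 3.22 ± 0.35, adjusted p = 0.00023). Hoxa7, its neighbour in the cluster, rose 9.57-fold (log2 3.26, adjusted p = 0.00023), and Mycn, a growth regulator of fetal stem cells, was at 81.9, 68.5, 49.6 and 54.9 CPM against 8.96, 8.12, 3.62 and 11 CPM. Mycn also did not overlap (7.21-fold, log2 2.85, adjusted p = 0.00013).

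Hlf was 0 CPM in the neighbours of cKO replicate 1 and 12.2, 4.35 and 8.17 CPM in the others, below the 31.9 to 110.1 CPM of the progenitors. It was called 7.74-fold higher (log2 2.95, adjusted p = 0.013), but not under the block (2.71, adjusted p = 0.12) or without control replicate 1 (2.73). Hmga2, a chromatin protein of fetal stem cells, rose by 1.25, and lost its call under the block (1.17) and without control replicate 1 (1.17). Esam was 5.67-fold higher (log2 2.50, adjusted p = 0.011). Cd34 rose by 0.80 (adjusted p = 0.021) and lost its call without cKO replicate 1 (0.61) or control replicate 1 (0.74).

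Endothelial genes, low in progenitors, were lower still in the neighbours. Of 12 tested, 8 were higher in progenitors and 0 lower, with a median of 2.03. Cdh5 was at 5.6, 3.69, 2.17 and 5.35 CPM in the neighbours against 17.2 to 62.7 CPM in progenitors, with no overlap (7-fold, log2 2.81, adjusted p = 0.0023). Flt1, a receptor of vascular endothelial growth factor, was 12.7-fold higher (log2 3.66, adjusted p = 0.00094). No arterial gene had enough counts in both groups to be tested.

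Lymphoid genes rose in part. Of 7, 3 were higher and 1 lower in progenitors, with a median of 1.63. Flt3 was at 2.24, 3.32, 1.45 and 2.54 CPM in the neighbours, below each of the progenitor sums of 9.87 to 18 CPM (5.28-fold, log2 2.40, adjusted p = 0.0018). Bcl11a, a regulator of B cell and stem cell development, was 3.1-fold higher (log2 1.63, adjusted p = 0.0013) and Ltb, the cytokine lymphotoxin beta, 3.3-fold (log2 1.72, adjusted p = 0.0033). The lower gene was Il2rg, the common chain of interleukin receptors (log2 -1.66, adjusted p = 0.016), and its call was lost without cKO replicate 2 (-1.54).

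Granulocyte-monocyte and mast cell genes went the other way. Of 15 granulocyte-monocyte genes 0 rose and 7 fell, with a median of -1.82. Cebpe, a factor of granulocyte maturation, was at 0, 2.08, 0.935 and 0.819 CPM in progenitors and 22.4, 113, 107 and 87.4 CPM in the neighbours, without overlap (70.3-fold lower, log2 -6.13, adjusted p = 0.00047). Mpo was at 881, 1919, 2134 and 1534 CPM in the neighbours, all above the progenitor maximum of 474 CPM (7.21-fold, log2 -2.85, adjusted p = 0.024). Its call was lost without control replicate 1 (-2.64) or control replicate 2 (-2.69). S100a8, a calcium-binding protein of neutrophils, held 0, 0, 1 and 2 UMIs in the progenitor sums and 356 to 1599 CPM in the neighbours, where 15 of 102 cells carried it.

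Of 3 mast and basophil genes 2 fell, among them Hdc, the histamine-forming enzyme, with 1, 2, 0 and 6 UMIs in the progenitor sums, at most 4.91 CPM, and 102, 271, 266 and 121 CPM in the neighbours (106-fold lower, log2 -6.73, adjusted p = 0.00023). Srgn, the proteoglycan core of granules, stood at 279, 387, 215 and 313 CPM against 729, 2397, 1515 and 1630.1 CPM. Its sums did not overlap (5.5-fold lower, log2 -2.46, adjusted p = 0.0029).

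Receptors for myeloid growth factors followed the granule genes. Of 14 cytokine receptors, 1 rose, which was Flt3, and 4 fell. Csf2rb, the shared beta chain for interleukin 3, interleukin 5 and granulocyte-macrophage colony-stimulating factor, was at 14.1, 14, 11.2 and 8.19 CPM in progenitors and 87.4, 84.5, 107 and 45.7 CPM in the neighbours, with no overlap (7-fold lower, log2 -2.81, adjusted p = 0.00017). The others were Il2rg, given above, Csf2ra (-1.34, and -1.19 or -1.20 and not called without control replicate 1 or 2) and Il3ra (-1.27, and -0.99 and not called without control replicate 1).

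Leukocyte genes were also lower, 6 of 20 with 0 higher and a median of -0.83, and 12 lower under the block. Fcer1g, which pairs with Fc receptors, was at 147, 289.7, 288 and 233 CPM against 502, 595, 589 and 559 CPM, without overlap (2.44-fold lower, log2 -1.29, adjusted p = 0.0018). Rac2 overlapped between the groups at 235, 419.5, 348 and 466 CPM against 460.4, 734, 608 and 681 CPM (log2 -0.82, adjusted p = 0.038; not called without cKO replicate 2, at -0.81, or control replicate 1, at -0.80).

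Of the heptad factors 1 rose and 1 fell. Lmo2, a bridging factor of the complex, was at 347, 401, 328 and 382 CPM against 125, 131, 74.6 and 161 CPM (2.8-fold, log2 1.49, adjusted p = 0.00092). Gata2, a stem cell and mast cell factor, was 3.33-fold lower (log2 -1.74, adjusted p = 0.0093), and -1.50 and not called without control replicate 1. Of the 25 S phase and 25 G2 and M phase genes 0 were called here, while under the block 1 S phase gene was lower and 1 G2 and M phase gene was called in each direction. The median depth by source was 54288.5 to 85696.5 UMIs in progenitors and 57837 to 92037 UMIs in the neighbours. Cited1, a transcriptional cofactor, was at 17.9, 18.7, 42.1 and 47.5 CPM in progenitors and 0, 0.369, 0 and 1.41 CPM in the neighbours (log2 5.31, adjusted p = 0.00023). It was detected in 18 of 66 progenitors, all but 1 of them Hoxa9 or Hlf cells, and single cells held 31 of its 36 UMIs in cKO replicate 2, 29 of 45 in control replicate 1 and 35 of 58 in control replicate 2.

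**Figure D4:**
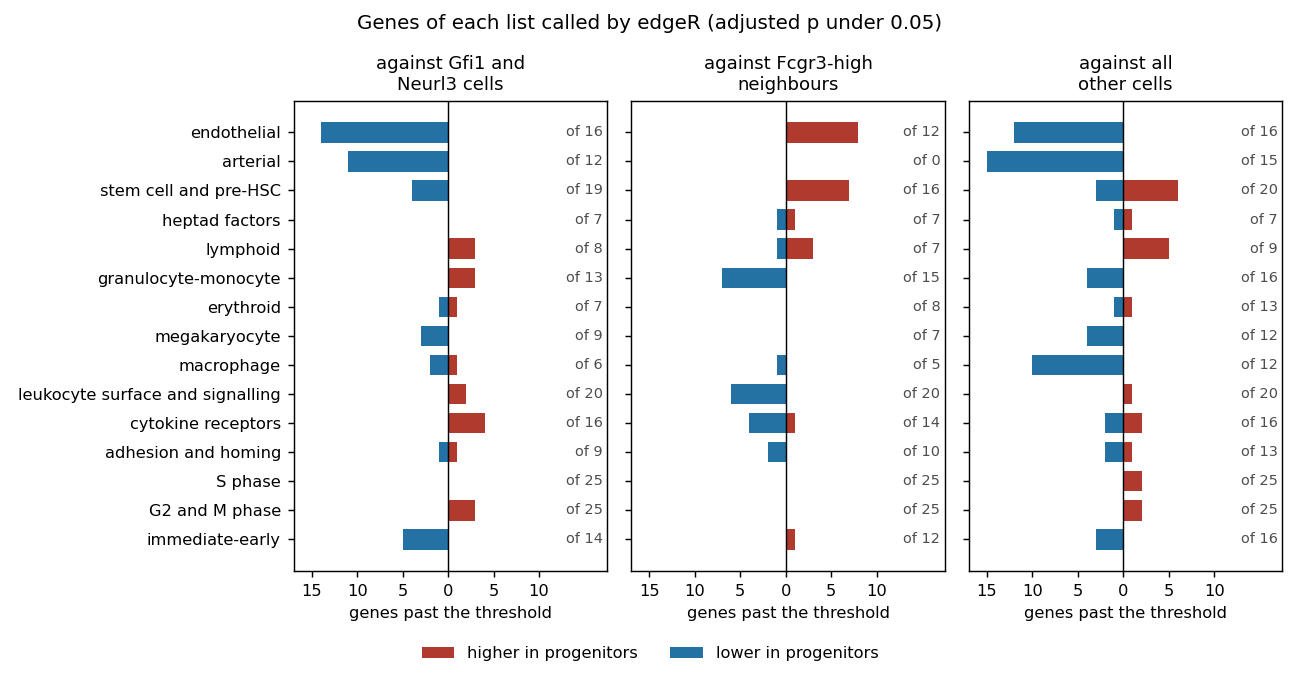
Number of genes called higher (right) and lower (left) in progenitors in 15 gene lists, for the comparisons with Gfi1+Neurl3+ cells, Fcgr3-high neighbours and all other cells, with the number tested at each bar. Endothelial genes are lower against Gfi1+Neurl3+ cells and against all other cells (14 and 12 of 16) and higher against the neighbours (8 of 12).

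Against all other cells, of which macrophages, megakaryocytes and arterial endothelium made up a large share, 554 of 11321 genes were higher (4.89%) and 1003 lower (8.86%), and 1576 (13.9%) and 1932 (17.1%) under the block. The sums of the other cells spread widely for some genes, as Pf4, a platelet chemokine gene, at 90.2, 3766, 740.4 and 4811 CPM. Of 15 arterial genes all 15 fell, with a median of -4.06, of 16 endothelial genes 12 (median -2.26) and of 12 macrophage genes 10 (median -3.60). Mrc1, the mannose receptor of macrophages, was at 0, 1.56, 1.87 and 2.46 CPM in progenitors and 103, 130.4, 86 and 133 CPM elsewhere (67.5-fold lower, log2 -6.08, adjusted p = 0.00022).

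Stem cell and lymphoid genes stood out on the higher side. Of 20 stem cell genes 6 rose and 3 fell (median 0.90, and 11 and 3 under the block), and of 9 lymphoid genes 5 rose and 0 fell (median 1.61). Flt3 was at 1.5, 2.27, 2.95 and 1.18 CPM elsewhere, below each progenitor sum (7.82-fold, log2 2.97, adjusted p = 0.0024). Cd27, a receptor of the tumor necrosis factor family found on stem cells and lymphocytes, was at 35.8, 8.83, 10.3 and 22.1 CPM against 3.05 to 3.6 CPM (5.86-fold, log2 2.55, adjusted p = 0.0058). Satb1 was 3.6-fold higher (log2 1.85, adjusted p = 0.002) and Cited1 9.82-fold (log2 3.30, adjusted p = 0.0033).

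Hoxa9 overlapped with the other cells, 22.6 to 70.1 CPM, and its call at the limit (log2 1.34, adjusted p = 0.049) was lost without any 1 of the 4 sources (1.03 to 1.74). Kit and Hlf were not called (log2 1.36, adjusted p = 0.16, and 1.43, adjusted p = 0.10), and were under the block (1.41, adjusted p = 0.00052, and 1.55, adjusted p = 8.6e-05). Procr and Mecom, counted on the lower side of the stem cell list, were at log2 -2.12 each. Procr lost its call without cKO replicate 2 (-2.27), control replicate 1 (-1.50) or control replicate 2 (-2.11), and Mecom without any 1 of the 4 sources (-1.92 to -2.22). The other cells also include endothelium, in which both are expressed.

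Within the progenitors, the deleted gene was low in both genotypes. Nupr1 was at 0 CPM in both cKO sums and 3.74 and 5.73 CPM in the control sums, as 7 members held any UMI, so that it was too sparse to be tested. In Gfi1+Neurl3+ cells it was at 1.96 and 2.42 CPM in cKO and 33.7 and 25.8 CPM in control, which matches the labels. Sex-linked genes differed between the sums: Ddx3y, on the Y chromosome, was at 51.2 CPM in the progenitors of cKO replicate 1 and 0 in the other 3 sums, while Xist was at 0, 153, 339 and 269 CPM, and their part in the genotype contrast was not tested.

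No gene was called between cKO and control progenitors. The test covered 7567 genes and called 0 (0%), with 57 at an unadjusted p below 0.05, and DESeq2 called 0 with 20 below 0.05. Under the replicate block, here the replicate alone, which pairs the genotypes that shared a library, 6 genes (0.0793%) were called, 4 higher and 2 lower in cKO. With 4 sums this fit leaves little residual spread per gene. Its SE and p-values therefore rest largely on variance shared across genes.

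Of these, Isg15, an interferon-induced ubiquitin-like protein, was at 8.96 and 36.3 CPM in cKO and 0.935 and 0.819 CPM in control. It was higher in both replicates (log2 4.56 ± 0.67 under the block, adjusted p = 0.0015; 4.64 and adjusted p = 1.0 without it). The control sums rested on 1 UMI each and the cKO sums on 7 and 70. Ier3, an immediate-early survival gene, was at 119 and 117 CPM against 48.6 and 41 CPM, with no overlap (log2 1.39 ± 0.21, adjusted p = 0.0015 under the block).

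Atf3, a stress-induced transcription factor, was at 137 and 35.3 CPM in cKO and 39.3 and 10.6 CPM in control. The groups overlapped, but cKO was higher within each replicate (log2 1.75 ± 0.25, adjusted p = 0.0015 under the block). Cdkn1c, the cell cycle inhibitor p57, showed the same layout at 227 and 54 CPM against 77.6 and 31.9 CPM (log2 1.19, adjusted p = 0.022). Klf2, a transcription factor of endothelium and quiescent lymphocytes, was lower, at 79.3 and 137 CPM against 193 and 220 CPM (log2 -0.96, adjusted p = 0.022), and Wfdc17, a secreted protein of myeloid cells, was at 1.28 and 2.08 CPM against 15 and 24.6 CPM (log2 -3.50, adjusted p = 0.0098).

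Gene lists gave 0 calls between genotypes. Of 13 immediate-early genes 0 were called and 11 had a positive fold change, with a median of 0.52 where the median over all genes was -0.01, and 2, Atf3 and Ier3, rose under the block. The list of TNF and NF-kB genes gave 0 of 11 with a median of 0.34, and Tnf itself stood at 3.84 and 13 CPM in cKO and 3.74 and 2.46 CPM in control. Of the stem cell genes 0 of 18 were called, with Hoxa9 at 0.07 ± 0.43 and Hlf at 0.44 ± 0.53 on the log2 scale (SE), and Flt3, of the lymphoid list, was at -0.60 ± 0.46, all with an adjusted p of 1.0. Mpo was at 0.84 ± 0.59, and the 114 and 474 CPM of its cKO sums differed by more than the genotypes.

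**Figure D5:**
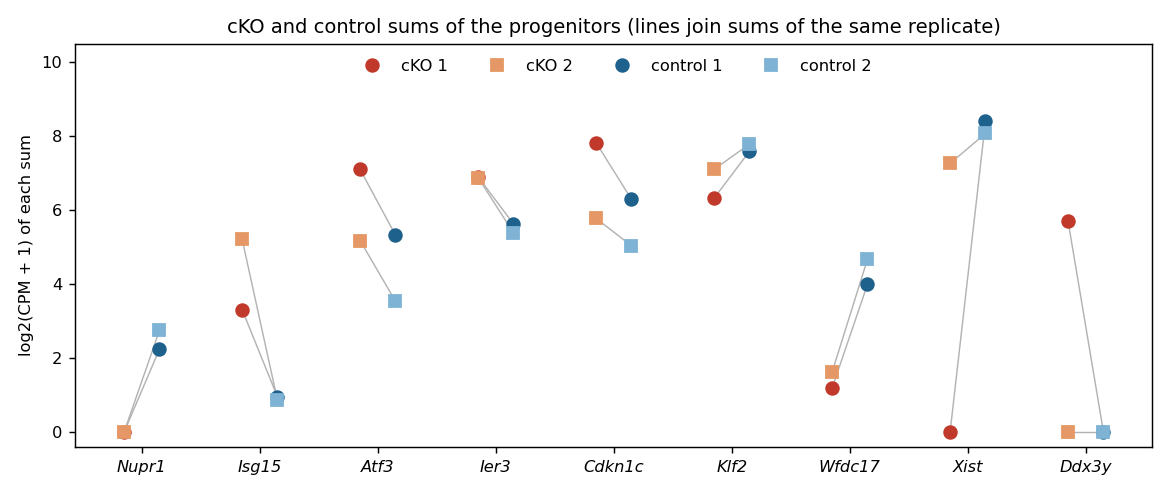
Level in log2(CPM + 1) (vertical axis) of 9 genes in the cKO and control progenitor sums, with a line joining the sums of the same replicate. Isg15, Atf3, Ier3 and Cdkn1c are higher and Klf2 and Wfdc17 lower in cKO in both replicates, while Ddx3y is present only in cKO replicate 1.

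Whether the genotype effect differed between progenitors and Gfi1+Neurl3+ cells was tested as an interaction. Of 10223 genes 0 were called (0%), with 97 at an unadjusted p below 0.05. DESeq2 called 0 with 53 below 0.05, and the replicate block called 0 (0%) with 253 below 0.05. In these 8 sums no gene's response to the loss of Nupr1 could be shown to be particular to the progenitors.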

How the data were processed

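Gene by cell UMI counts were deposited by the authors as 2 libraries (10x Chromium, Cell Ranger 5.0.1, build mm10, names and versions from the submitters' processing notes), together with a table of cells whose hashtag calls give the genotype. The authors deposited raw counts, not normalized, for 24543 genes in 678 and 1461 cells, kept as singlets by their hashtag calls. Limits of over 1800 genes, over 6000 UMIs and under 5% mitochondrial reads are stated in the methods, but 47 cKO and 54 control cells of replicate 1 lie outside them. All cells were kept, 4 progenitors among these.

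CPM were computed per cell or per sum. UMIs were summed by population, genotype and replicate (at least 10 cells a sum) and tested with edgeR 4.0.16 (filterByExpr, TMM, robust quasi-likelihood fit, Benjamini-Hochberg over all genes tested, threshold 0.05) in R 4.3.3. The 12 genes of the gate were fitted and never counted. DESeq2 1.42.0 was an alternative, beside another scaling, no low-count filter, thinning to 6000 UMIs, other gate limits, control sums alone, deep cells left out, a block and each source left out. The block was the genotype by replicate source in the population comparisons. In the genotype and interaction fits it was the replicate alone. Leaving out the Gata1 or Klf1 cells was chosen after seeing the data. Shares used exact binomial intervals and exact permutation tests (scipy 1.17.1). The fits were tested on simulated data with 200 changed genes. These sums were drawn independently, with the same dispersion for every gene and no source effect. They therefore do not show how the fits behave on sums that share a source.

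Each library held both genotypes, so the replicate pairs the sums: deviations of cKO and control progenitors of 1 replicate correlated at r = 0.426 over 7567 genes. Genes were named when among the 10 largest called changes in each direction with a mean of at least 20 CPM in the higher population, or among the 4 highest or 4 most changed of 22 gene lists. Others named, such as Isg15 under the block, were chosen after their values were seen. The members and the lists were chosen with earlier results of these data known. Promoters came from RefSeq tables, in which all 5 genes matched.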

Additional observations from a re-analysis of the deposited data

How the results depend on the processing

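No called gene named here changed direction, while the counts of calls moved with the fit. Against Gfi1+Neurl3+ cells the 834 calls became 2167 with the replicate block, 1377 with Fcgr3 allowed up to 100 CPM, 512 with control sums only, 462 without cells of over 2 times the median UMIs and 135 of 3171 genes after thinning to 6000 UMIs, and ran from 325 to 848 with 1 source left out. Against all other cells the 1557 calls became 3508 with the block, 2361 with DESeq2, 402 of 7687 genes after thinning and 27 with control sums only, and ran from 377 to 802 with 1 source left out. Against the Fcgr3-high neighbours the 463 calls became 918 with the block, 849 with the wider Fcgr3 limit, 131 with control sums only and 74 of 1740 genes after thinning, and ran from 141 to 340 with 1 source left out. Thinning, control sums only and leaving out a source test fewer counts or fewer samples, and the cause of the other changes was not tested. Between genotypes the 0 calls became 6 with the block and 4 of 13534 genes with no low-count filter, and ran from 5 to 15 with 1 source left out. For the interaction they became 17 of 15710 genes with no filter, and were 0 to 1 with 1 source left out. A side with 1 sum was then assumed to vary like the others. Without the 8 Gata1 or Klf1 cells the calls were 762, 1437, 693 and 0. The share difference of 0.247 points ran from -1.21 without control replicate 2 to 1.71 without control replicate 1, and was -0.245 without cKO replicate 1. Of the named and called genes, 32 of 67, 8 of 87 and 23 of 53 were called under every alternative that tested them (against Gfi1+Neurl3+ cells, all other cells and the neighbours), and 0 reversed. Among the single genes given with a test, the replicate block changed no call beyond those printed beside them, while it moved further list counts by a few genes. The 781404 UMIs of the smallest sum limit what genes of a few CPM can show.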
